A study of Mus musculus with 20 samples.

Results

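The genes described here encode the enzymes that copy the nuclear genome: Pole, Pole2, Pole3 and Pole4 (DNA polymerase epsilon), Pold1, Pold2, Pold3 and Pold4 (DNA polymerase delta), Pola1 (the catalytic subunit of DNA polymerase alpha) and Pcna (the sliding clamp). They are the 10 of 55335 listed genes whose Ensembl identifiers carry these symbols in GENCODE vM21 (mm10). RNA was sequenced from whole tumours of CT26, a carcinoma line derived from the colon of a BALB/c mouse. Tumours grew either from cells labelled POLE-mutant or from cells labelled vector, whose genotype is given as control. The mice received an antibody against PD-1, an inhibitory receptor of T cells, or PBS. The 4 groups were mutant anti-PD-1, mutant PBS, vector anti-PD-1 and vector PBS, with 5 tumours each. No source used here gives the mutation, the species of the introduced sequence, the number of cell clones, or the mice's age and sex. The series title names CHEK2, a checkpoint kinase, while the sample labels and the design text name POLE. Whether reads of an introduced sequence entered the Pole values was not analysed here. The labels do not say whether same-group tumours came from separate cell cultures, so p-values measure the spread between these tumours.

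At a replication fork, polymerase alpha with primase starts each new strand, polymerase epsilon extends the leading strand and polymerase delta extends the lagging strand. Pcna encircles DNA behind the polymerases and keeps delta in particular from falling off. The catalytic subunits of epsilon and delta also carry a proofreading exonuclease, and tumours with mutations in that domain of POLE accumulate very many base substitutions. Many genes of this machinery are transcribed mainly in cycling cells, in part under E2F transcription factors. In a tumour their RNA can come from tumour cells and from host cells, and the cells of origin were not tested here.

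The members lie on 9 chromosomes. Pole spans chromosome 5, 110286306 to 110337474, on the plus strand. Over all 20 tumours, the 3 members whose level followed that of Pole most closely within groups were Pola1 (chromosome X, 93304767 to 93632155), Pole2 (chromosome 12, 69201773 to 69228195) and Pcna (chromosome 2, 132249162 to 132253314), and the least close was Pold4 (chromosome 19, 4231899 to 4233634). Their promoters are printed as the ends of that order, which was different without the 3 libraries least correlated with the others: Pold1 and Pold3 then stood above Pole2 and Pcna, and Pold2 and Pole3 below Pold4. Each line holds the 250 bases before the RefSeq start on GRCm38.p6 (mm10), 5′ to 3′ on the gene's own strand. Capitals mark matches, on either strand, to the E2F forms TTTCCCGC, TTTCGCGC, TTTGCCGC and TTTGGCGC, to CCAAT and to GGGCGG, the core of the GC box bound by Sp1.
Pola1, chrX:93632156-93632405, minus strand: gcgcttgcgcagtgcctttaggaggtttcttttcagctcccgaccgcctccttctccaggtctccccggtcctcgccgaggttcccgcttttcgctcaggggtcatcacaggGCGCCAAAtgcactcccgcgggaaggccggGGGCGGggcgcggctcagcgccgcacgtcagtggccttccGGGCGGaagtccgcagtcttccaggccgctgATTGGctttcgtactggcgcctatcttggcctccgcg
Pole2, chr12:69228191-69228440, minus strand: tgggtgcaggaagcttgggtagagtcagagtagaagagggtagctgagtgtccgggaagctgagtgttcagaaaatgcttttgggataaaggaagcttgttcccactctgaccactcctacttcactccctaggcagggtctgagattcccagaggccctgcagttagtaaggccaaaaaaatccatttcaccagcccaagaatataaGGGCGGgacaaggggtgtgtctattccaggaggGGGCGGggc
Pcna, chr2:132253181-132253430, minus strand: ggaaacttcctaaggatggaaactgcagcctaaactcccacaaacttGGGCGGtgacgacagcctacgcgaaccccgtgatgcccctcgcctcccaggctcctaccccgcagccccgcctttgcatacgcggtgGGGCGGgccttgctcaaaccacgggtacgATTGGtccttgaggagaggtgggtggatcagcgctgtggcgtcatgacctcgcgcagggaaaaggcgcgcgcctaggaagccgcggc
Pold4, chr19:4231643-4231892, plus strand: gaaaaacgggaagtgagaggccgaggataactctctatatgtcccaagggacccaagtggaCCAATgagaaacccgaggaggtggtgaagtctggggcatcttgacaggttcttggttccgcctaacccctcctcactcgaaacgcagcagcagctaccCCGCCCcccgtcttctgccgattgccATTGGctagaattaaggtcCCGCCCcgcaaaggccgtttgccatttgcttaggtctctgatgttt

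Windows were found for 9 of the 10 members, all but Pole. An E2F form was present in 2 of the 9, Pola1 and Pole4, against 2.16% of 27025 genes with a window. In Pola1 the match begins 138 bases before the start and lies on the minus strand of the line. GGGCGG was present in 8 of the 9 members, all but Pole3, against 35.4% of genes, and CCAAT in 4 of the 9 (Pold2, Pold4, Pola1 and Pcna) against 37.5%. TATAAA was in 1 member, Pold2, against 14.3% of genes. Among the 32 other replication fork genes with a window, described by role below, the shares were 25% for the E2F forms and 62.5% for GGGCGG. They were 59.4% for CCAAT and 6.25% for TATAAA. No motif searched overlapped another in the 4 lines shown. These matches describe the letters in the windows and were not tested for binding.

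The values are FPKM, fragments scaled by transcript length and library size, so levels can be set side by side between genes. No read counts were at hand, the depth of each library is unknown, and no counting interval can be given. FPKM totals ran from 328740 to 566913 per library. The 3 libraries least correlated with the others were mutant anti-PD-1 replicates 1 and 2 and vector anti-PD-1 replicate 1, and results that rest on them are given with and without them. Colon markers were sparse: Vil1 was at 0 in 13 of 20 libraries, Cdx2 in 9 and Epcam in 7, while Krt20 had a median of 55.7 FPKM and Krt18 of 10.9 FPKM. Skeletal muscle RNA was present at very unequal levels, with Acta1 from 0.0639 to 364 FPKM. In bulk tumour RNA, fewer cells of a type and less RNA per cell cannot be told apart.

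Averaged over all 20 tumours, the clamp was the most abundant product and Pole the scarcest. The last place of Pole depended on the mutant tumours: Pole averaged 7.51 FPKM against 7.18 FPKM for Pold3 in vector anti-PD-1 and 8.62 against 7.39 FPKM in vector PBS tumours. Pcna averaged 144 FPKM, Pold4 36.3, Pole3 32.8, Pole4 21.8, Pold2 20.7, Pold1 15.1, Pole2 11.6, Pola1 10.9, Pold3 7.28 and Pole 6.32 FPKM. Pole stood below its accessory subunits Pole2, Pole3 and Pole4, and Pold1 stood below Pold2 and Pold4. Neighbours in this order were close compared with their spread: Pole4 had an SD of 2.5 FPKM and Pold2 of 4.81 FPKM over the 20 tumours, and Pole2 of 3.24 FPKM and Pola1 of 3.76 FPKM. Only Pcna stood clear of every other member, with a lowest value of 65.9 FPKM against a highest of 51.4 FPKM in Pold4. Pole, Pola1 and Pole2 varied most in proportion to their mean, with coefficients of variation of 38.7%, 34.4% and 28.0%, and Pold3 varied least at 9.80%. The processed pseudogene Pcna-ps2 on chromosome 19 was listed at a median of 46.0 FPKM, and how the authors assigned reads shared with Pcna is not stated, so the level of Pcna is uncertain. Genes overlapping the other members were listed at medians of at most 0.436 FPKM, reached by Gm15792, which lies antisense within Pole, and use of strand in counting is not stated.

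**Figure D1:**
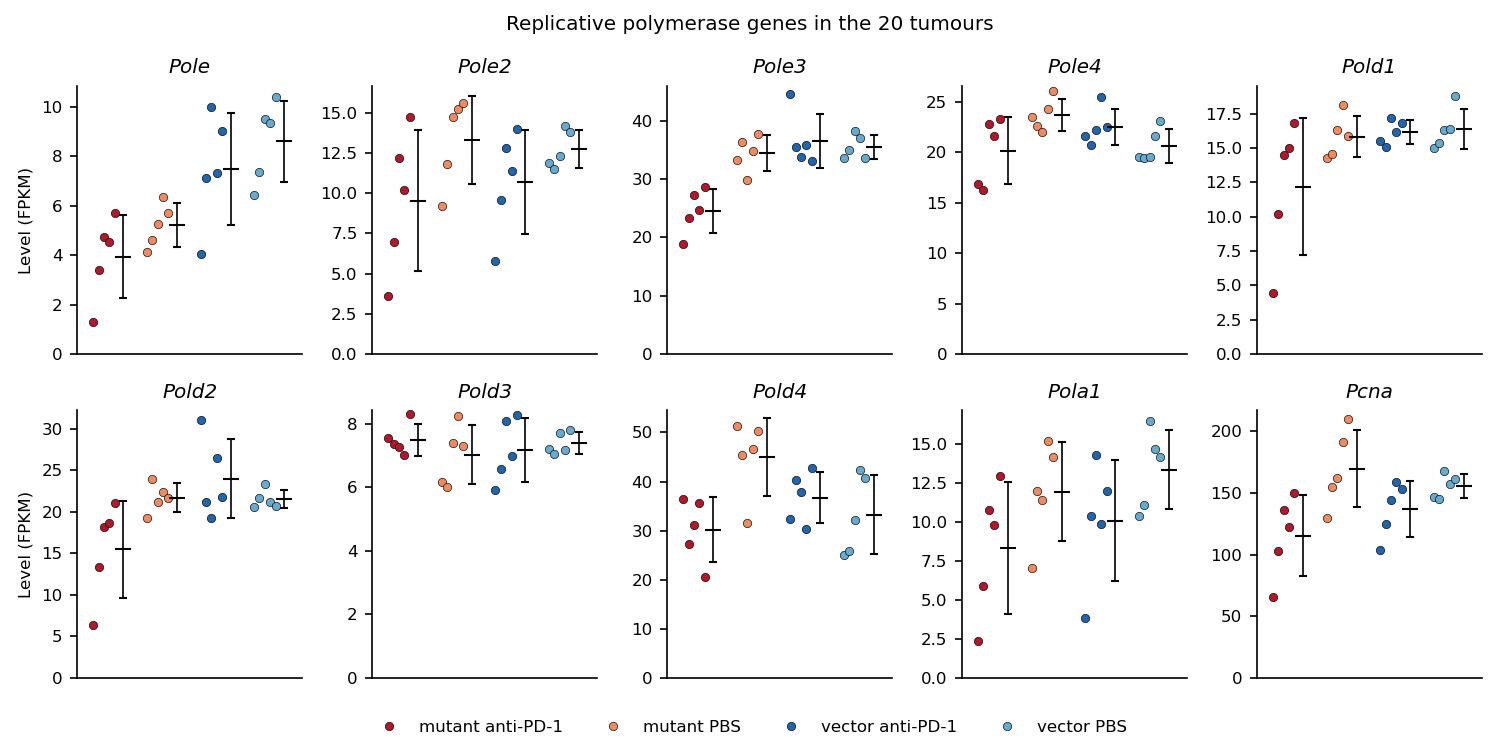
FPKM of each member in every tumour, 1 panel per gene with its own axis from 0. Points are tumours in replicate order, and the bar beside each group is the mean with its SD (n = 5). In the Pole panel all 5 mutant PBS tumours lie at or below 6.35 FPKM and all 5 vector PBS tumours at or above 6.45 FPKM.

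In tumours of PBS-treated mice, Pole values were lower in every mutant tumour than in any vector tumour, while the other subunits of the same enzyme overlapped between the groups. Pole was at 4.14, 4.63, 5.27, 6.35 and 5.73 FPKM in mutant PBS tumours, and at 6.45, 7.38, 9.50, 9.35 and 10.4 FPKM in vector PBS tumours. The groups did not overlap, although the highest mutant tumour came close to the lowest vector tumour. Across all tested genes, 5.74% were lower with no overlap in this comparison. The means were 5.22 ± 0.872 FPKM in mutant PBS and 8.62 ± 1.64 FPKM in vector PBS (SD, n = 5 each), a ratio of 0.606. On the log2(FPKM + 1) scale the difference was -0.62 ± 0.18 (SE), with an unadjusted p of 0.00302 and an adjusted p of 0.12 (limma, Benjamini-Hochberg over 13982 genes), so it did not pass the threshold of 0.05. In limma 0 of the 10 members passed in this comparison, against 0.923% of genes called lower. An unadjusted p under 0.05 was reached by 2 members, Pole and Pold4, and by 1536 of 13982 genes. Without the 3 least correlated libraries, none of which is in these groups but which feed the shared estimate of spread, the difference was again -0.62 and its adjusted p was 0.00069, beside 7.10% of genes called lower. Leaving out mutant anti-PD-1 replicate 1 alone gave an adjusted p of 0.0249, and leaving out vector anti-PD-1 replicate 1 alone gave 0.0301. Of 20 fits that left out 1 library, only these 2 passed. Over all 34 alternatives 8 passed, and the adjusted p in limma reached 0.734.

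No other member had groups without overlap under PBS. Pole2, the structural B subunit that bridges the catalytic core to the CMG helicase, averaged 13.3 ± 2.73 FPKM in mutant PBS and 12.7 ± 1.18 FPKM in vector PBS. Its log2 difference was 0.04, with a 95% interval of -0.39 to 0.46. Pole3 and Pole4, histone-fold subunits that form a dimer and help return parental histones to the daughter strands, had log2 differences of -0.04 (interval -0.29 to 0.20) and 0.19 (interval -0.01 to 0.39). For polymerase delta the differences were -0.05 for Pold1, the catalytic subunit, 0.01 for Pold2, the B subunit, and -0.07 for Pold3, which binds the clamp. Pold4, the smallest subunit of delta, which is degraded after DNA damage, was at 51.4, 45.4, 31.6, 46.6 and 50.2 FPKM in mutant PBS tumours and at 25.1, 25.9, 32.1, 42.3 and 40.7 FPKM in vector PBS tumours. These groups overlapped through mutant PBS replicate 3, and the log2 difference of 0.44 (interval 0.07 to 0.81) had an adjusted p of 0.312. Pola1 differed by -0.17 (interval -0.72 to 0.38) and Pcna by 0.10 (interval -0.22 to 0.43).

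Under anti-PD-1, 4 of the 10 members were lower in mutant than in vector tumours and none was higher, beside 15.1% of all genes called lower. These were Pole, Pole3, Pold1 and Pold2. Pole was at 1.30, 3.40, 4.75, 4.52 and 5.71 FPKM in mutant anti-PD-1 tumours and at 4.05, 7.12, 10.02, 7.32 and 9.02 FPKM in vector anti-PD-1 tumours. The groups overlapped only because vector anti-PD-1 replicate 1 was low. The log2 difference was -0.93 ± 0.18 with an adjusted p of 0.000963. It was -0.80 with an adjusted p of 0.000667 without the 3 least correlated libraries.

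Pole3 was at 18.9, 23.3, 27.2, 24.7 and 28.6 FPKM in mutant anti-PD-1 tumours and at 44.7, 35.5, 33.8, 35.8 and 33.2 FPKM in vector anti-PD-1 tumours. The groups did not overlap, as for 7.83% of genes that were lower without overlap. The log2 difference was -0.58 ± 0.12 (adjusted p = 0.00125), and it was -0.36 (adjusted p = 0.00916) without the 3 least correlated libraries. Pold1 was at 4.42, 10.2, 14.5, 15.0 and 16.8 FPKM in mutant anti-PD-1 tumours and at 15.5, 15.1, 17.2, 16.2 and 16.8 FPKM in vector anti-PD-1 tumours. The low values were those of mutant anti-PD-1 replicates 1 and 2, and the log2 difference of -0.57 (adjusted p = 0.0291) was -0.15 (adjusted p = 0.203) without the 3 least correlated libraries. Pold2 was at 6.39, 13.3, 18.1, 18.6 and 21.1 FPKM in mutant anti-PD-1 tumours and at 31.0, 21.2, 19.3, 26.5 and 21.8 FPKM in vector anti-PD-1 tumours. Its low values were in the same tumours, and the log2 difference was -0.71 (adjusted p = 0.0178), and -0.16 (adjusted p = 0.314) without the 3 libraries. Of the 4 calls, those of Pole and Pole3 were kept without these libraries, where 11.7% of genes were called lower. Averaged over both treatments, Pole was lower in mutant tumours by -0.78 on the log2 scale (adjusted p = 0.000332) and Pole3 by -0.31 (adjusted p = 0.0108), and these were the 2 members called, beside 11.1% of genes called lower.

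**Figure D2:**
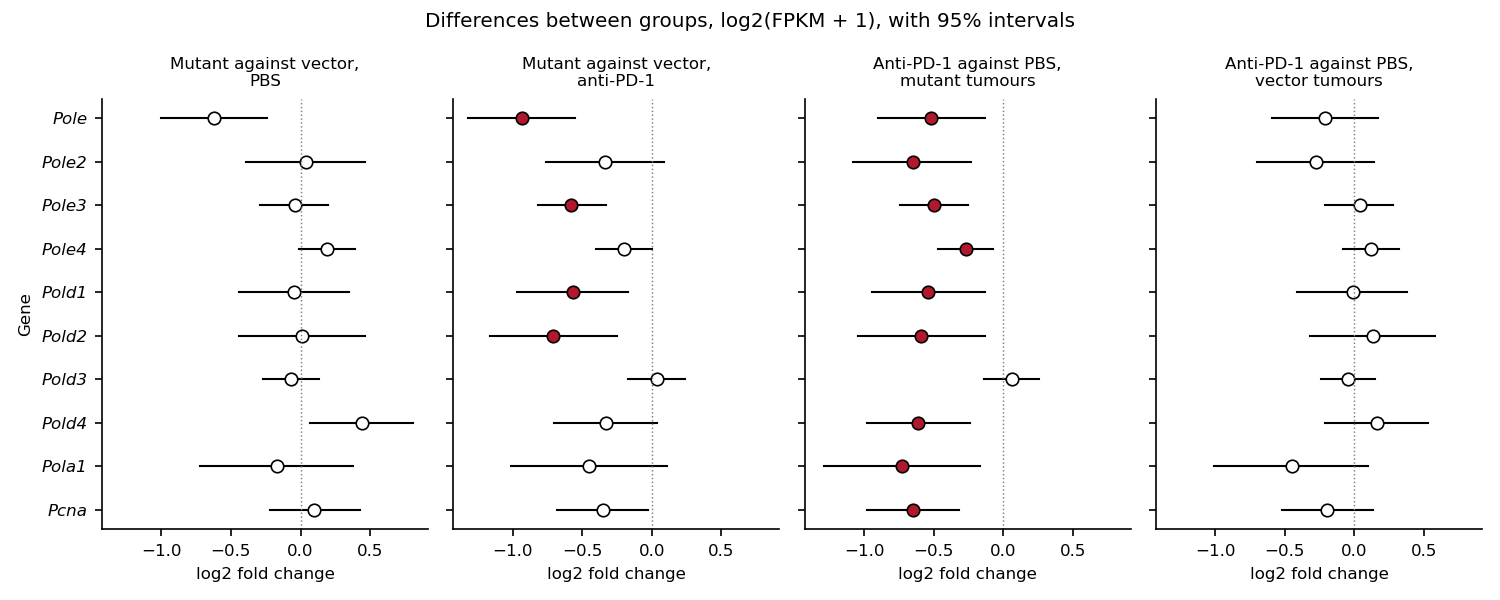
Log2 difference of each member on the log2(FPKM + 1) scale in 4 comparisons, with its 95% interval from limma. Filled points passed an adjusted p of 0.05: none in the first panel, 4 in the second, 9 in the third and none in the fourth.

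To set Pole beside the replication machinery of the same tumour, it was also measured relative to 39 tested genes of 40 that act at the fork: the partners of polymerase alpha, the helicase and its origin factors, the clamp loaders, and the single-strand binding, ligation and RNA removal proteins. The measure is the log2(FPKM + 1) of Pole minus the mean of those genes in the same tumour. It averaged -1.21 ± 0.07 in mutant PBS and -0.61 ± 0.21 in vector PBS (SD, n = 5 each). The highest mutant PBS tumour was at -1.13 and the lowest vector PBS tumour at -0.89. The difference of -0.59 had p = 0.00794 in a two-sided exact permutation test, the smallest that 252 arrangements allow, and an adjusted p of 0.0212 over 8 such tests. Under anti-PD-1 it averaged -1.20 ± 0.16 in mutant and -0.68 ± 0.25 in vector tumours (SD, n = 5 each). There too the groups did not overlap, with -1.07 as the highest mutant tumour and -1.03 as the lowest vector tumour. That difference of -0.52 had the same exact permutation p of 0.00794 (adjusted p = 0.0212), and was -0.53 (adjusted p = 0.114) without the 3 least correlated libraries. In that setting the highest mutant tumour was at -1.07 and the lowest vector tumour at -0.83. Fewer tumours allow fewer arrangements, so the smallest p that the test can give is larger there.

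Between anti-PD-1 and PBS the relative level of Pole differed by 0.01 in mutant tumours (two-sided exact permutation p = 0.968, adjusted p = 0.968) and by -0.07 in vector tumours (exact permutation p = 0.651, adjusted p = 0.744), less than the SD within the vector groups. Against Pold1 alone, the catalytic subunit of the lagging-strand enzyme, Pole averaged -1.44 ± 0.09 in mutant PBS and -0.87 ± 0.16 in vector PBS on the log2 scale (SD, n = 5 each; exact permutation p = 0.00794, adjusted p = 0.0212). Under anti-PD-1 it averaged -1.39 ± 0.11 in mutant and -1.06 ± 0.39 in vector tumours (exact permutation p = 0.103, adjusted p = 0.206). Vector anti-PD-1 replicate 1 was at -1.71, below every mutant tumour, and without it the difference of -0.33 was -0.49 with an adjusted p of 0.0159. Of 14 alternatives, 10 of them leaving out 1 library, this was the only 1 that passed. As plain FPKM ratios with no test, Pole to Pole2 was 0.41 ± 0.05 in mutant anti-PD-1, 0.40 ± 0.04 in mutant PBS, 0.70 ± 0.06 in vector anti-PD-1 and 0.67 ± 0.09 in vector PBS. The highest mutant tumour had a ratio of 0.49 and the lowest vector tumour 0.54. Pole to Pola1 was 0.49 ± 0.07, 0.45 ± 0.08, 0.79 ± 0.15 and 0.65 ± 0.06 in the same order of groups.

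**Figure D3:**
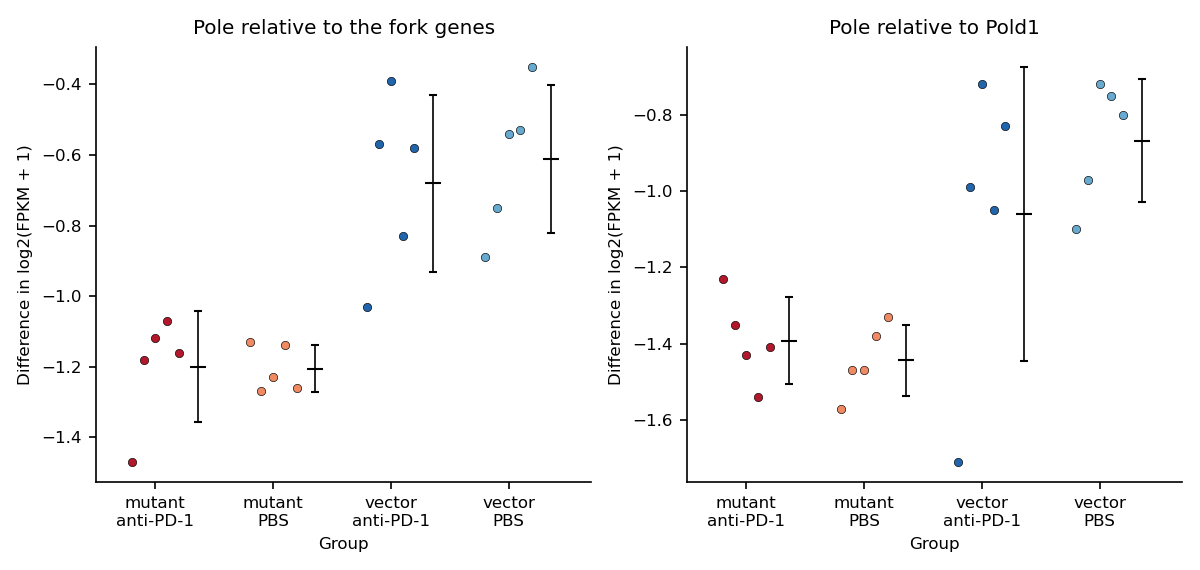
Log2(FPKM + 1) of Pole minus the mean of 39 fork genes (left) or minus Pold1 (right), 1 point per tumour with the mean and SD of each group (n = 5). On the left the 10 mutant tumours lie between -1.47 and -1.07 and the 10 vector tumours between -1.03 and -0.35.

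The fork genes were then described on their own. In mutant against vector tumours under PBS, 0 of 39 were called, beside 1.45% of all genes. Their median was 0.01, and none had a lower log2 difference than Pole. The lowest was Prim2, the large primase subunit, at -0.54 (adjusted p = 0.238), followed by Mcm6, a subunit of the replicative helicase, at -0.44 (adjusted p = 0.376). When the 3 least correlated libraries were left out, 2 were lower, beside 7.10% of all genes, and 1 was higher, beside 688 of 13547. Under anti-PD-1, 14 of 39 were lower in mutant than in vector tumours, beside 15.1% of all genes. The median was -0.37, and again none lay below Pole. Mcm6 (-0.86, adjusted p = 0.0023), Rpa3, of the single-strand binding complex (-0.85, adjusted p = 0.00124), Rfc4, a clamp loader subunit (-0.66, adjusted p = 0.0287) and Prim1, the catalytic primase subunit (-0.65, adjusted p = 0.0278) were among the 14. With those 3 libraries left out, 2 of 39 were lower, beside 11.7% of all genes, and the median was -0.16.

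**Figure D4:**
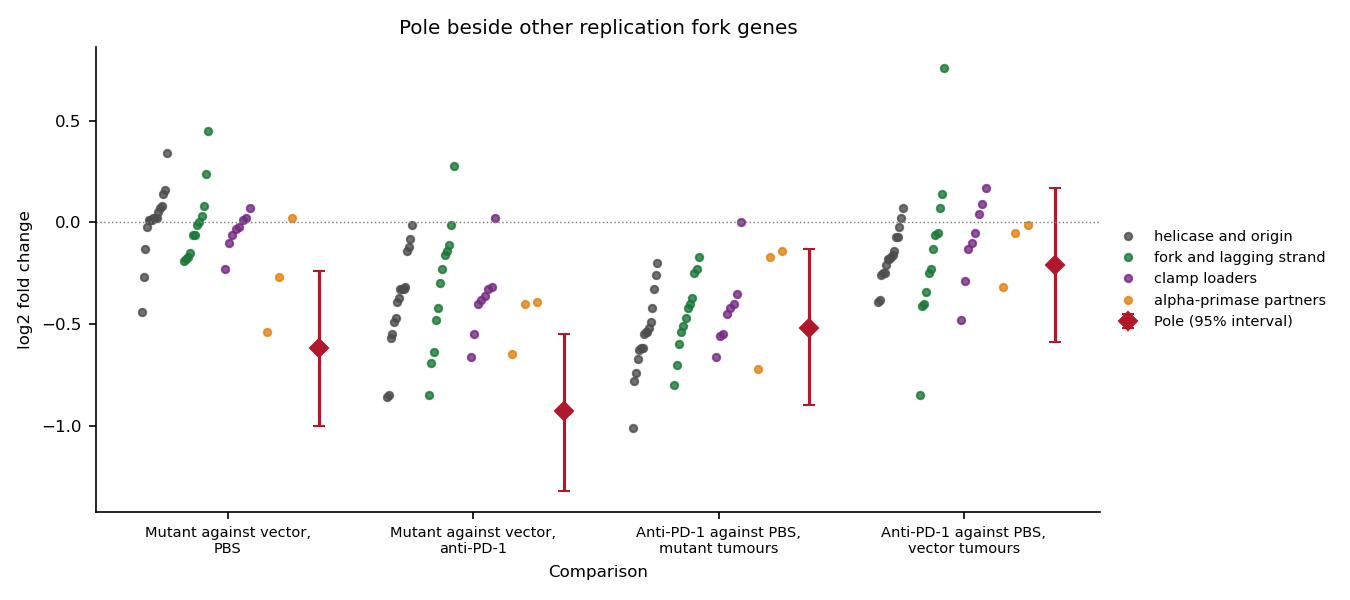
Log2 differences of the 39 fork genes in 4 comparisons, coloured by role, with Pole as a diamond and its 95% interval. In both comparisons of mutant against vector tumours Pole lies below all 39 genes, and in mutant tumours under anti-PD-1 against PBS it lies among them, with 19 of 39 below it.

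Within mutant tumours, nearly the whole set was lower under anti-PD-1. Of 10 members 9 were lower than under PBS, all but Pold3, beside 14.6% of all genes called lower, and the median log2 difference of the members was -0.56 against -0.10 over all genes. The count was 3 without the covariate for how animals are numbered in the titles (10.5% of genes lower) and 2 when each library was scaled to an equal sum (6.98%). That identifier style, M and a number or a number alone, has no stated meaning, and across groups Pole was at -0.53 (unadjusted p = 0.000715, adjusted p = 0.121), Pola1 at -0.70 (adjusted p = 0.132) and Pole2 at -0.58 (adjusted p = 0.121) on the log2 scale in M-style minus number-only tumours in limma. Of the 5 tumours, 2 were M-style in mutant anti-PD-1 and 3 in mutant PBS. Those 2 were mutant anti-PD-1 replicates 1 and 2, and all 3 libraries least correlated with the others were M-style. Leaving them out therefore left only number-only tumours in mutant anti-PD-1. The style term and that exclusion are not separate checks. Pcna was at 65.9, 103, 136, 122 and 150 FPKM in mutant anti-PD-1 tumours and at 130, 155, 162, 191 and 210 FPKM in mutant PBS tumours. The groups overlapped in the upper anti-PD-1 tumours, and the log2 difference was -0.65 ± 0.16 (adjusted p = 0.00451). Pole3 had the values given above in mutant anti-PD-1 tumours, and 33.3, 36.4, 29.9, 34.9 and 37.8 FPKM in mutant PBS tumours. It was the member whose groups did not overlap, as for 11.8% of genes lower without overlap, and its log2 difference was -0.50 ± 0.12 (adjusted p = 0.00421). Pold4 was at 36.4, 27.3, 31.2, 35.7 and 20.5 FPKM in mutant anti-PD-1 tumours, against the mutant PBS values above. Its groups overlapped through mutant PBS replicate 3 alone, and the log2 difference was -0.61 ± 0.18 (adjusted p = 0.0141).

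For the other 6 called members the low tumours were chiefly mutant anti-PD-1 replicates 1 and 2. Pola1 was at 2.35, 5.90, 10.8, 9.81 and 13.0 FPKM in mutant anti-PD-1 and at 7.05, 12.0, 11.4, 15.2 and 14.2 FPKM in mutant PBS tumours, a log2 difference of -0.73 (adjusted p = 0.045). Pole2 was at 3.59, 6.97, 12.2, 10.2 and 14.7 FPKM in mutant anti-PD-1 and at 9.20, 11.8, 14.7, 15.2 and 15.6 FPKM in mutant PBS tumours, a log2 difference of -0.65 (adjusted p = 0.0217). In both genes mutant anti-PD-1 replicates 3, 4 and 5 lay inside the mutant PBS range. Pold2 differed by -0.59 (adjusted p = 0.0475), Pold1 by -0.54 (adjusted p = 0.0408), Pole by -0.52 (adjusted p = 0.0399) and Pole4 by -0.27 (adjusted p = 0.0396). Pold3 was the exception, at 7.01 to 8.32 FPKM in mutant anti-PD-1 and 6.03 to 8.25 FPKM in mutant PBS tumours, a log2 difference of 0.06 (interval -0.14 to 0.26). Without the 3 least correlated libraries 3 of the 9 calls were kept, beside 9.90% of genes called lower, those of Pold4 (-0.83, adjusted p = 0.00944), Pole3 (-0.36, adjusted p = 0.0101) and Pcna (-0.41, adjusted p = 0.0311). Leaving out mutant anti-PD-1 replicate 1 alone, or mutant PBS replicate 3 alone, also left 3 calls, leaving out mutant PBS replicates 2 or 4 left 4, and leaving out mutant anti-PD-1 replicate 2 or mutant PBS replicate 1 left 5.

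Other replication genes were described in the same comparison. Over all genes 14.6% were called lower in this comparison and 2226 of 13982 higher. A list count near such a share is not particular to the list. Of the 39 fork genes 16 were lower and 0 higher, all 39 had a negative log2 difference, and the median was -0.51. Mcm7 (-1.01, adjusted p = 0.00662) and Mcm2 (-0.78, adjusted p = 0.0124) of the helicase, Orc6 of the origin recognition complex (-0.74, adjusted p = 0.00179), Rpa3 (-0.80, adjusted p = 0.00221) and Tipin, which protects stalled forks (-0.70, adjusted p = 0.00344), were among the 16. Leaving out the 3 least correlated libraries, 4 of 39 were lower, a share near the 9.90% of all genes lower in that setting, and the median was -0.23. Of 10 genes that supply or degrade nucleotides, 6 were lower, among them Dut (-0.89), which keeps uracil out of DNA, and Tyms (-0.73), which makes thymidylate. The 1 that was higher was Samhd1, a hydrolase of deoxynucleotides that is abundant in myeloid cells, at 77.8 FPKM on average in mutant anti-PD-1 and 22.8 FPKM in mutant PBS tumours (log2 difference 1.87, adjusted p = 0.000148). Of 5 genes of mitochondrial DNA replication 3 were lower, led by the helicase Twnk, at 5.15 FPKM on average in mutant anti-PD-1 and 10.3 FPKM in mutant PBS tumours (-0.93, adjusted p = 0.000101). Of 11 tested repair and bypass polymerases 1 was lower, Polk (-0.95, adjusted p = 0.0415), an enzyme that extends past bulky lesions. Of 5 genes that regulate the clamp 2 were lower, Cdkn1a, whose product p21 binds Pcna (-0.80, adjusted p = 0.0164), and Dtl, an adaptor that marks Pcna-bound proteins for degradation (-0.57, adjusted p = 0.0257).

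Chrac1, a histone-fold partner of Pole3 in chromatin remodelling, was lower as well, at 13.9 FPKM on average in mutant anti-PD-1 and 21.1 FPKM in mutant PBS tumours (-0.62, adjusted p = 0.0108), while its co-factors Smarca5 (-0.49, adjusted p = 0.0578) and Baz1a (0.21, adjusted p = 0.512) did not pass. Of 11 E2F and pocket protein genes 3 were lower, E2f4, E2f8 and E2f1, with log2 differences of -0.46, -0.97 and -0.36. Of 10 mitotic genes 2 were lower, Cdk1 (-0.50, adjusted p = 0.0234) and Bub1 (-0.64, adjusted p = 0.0378). The share of all genes called lower was again 14.6%. In mutant against vector tumours under PBS, where 1.45% of all genes were called, none of these 7 lists had a called gene (limma). All 10 mitotic genes had a negative log2 difference, with a median of -0.31. When the 3 least correlated libraries were left out, 2 of 10 mitotic, 2 of 11 E2F and pocket protein and 1 of 11 repair and bypass polymerase genes were lower there, and 1 nucleotide supply and 1 clamp regulator gene were higher. Over all genes 7.10% were called lower and 688 of 13547 higher in that setting. Under anti-PD-1, mutant against vector, the counts of lower genes were 4 of 10 for nucleotide supply, 3 of 5 for mitochondrial replication, 1 of 11 for repair and bypass polymerases, 1 of 5 for clamp regulators, 2 of 11 for E2F and pocket proteins and 5 of 10 for mitosis, and Samhd1, Rbl2 and Rb1 were higher. Over all genes 15.1% were called lower and 2489 of 13982 higher in that comparison. None of the 3 chromatin partners of Pole3 passed there. Without the 3 least correlated libraries, 1 of 10 nucleotide supply, 1 of 5 mitochondrial replication and 1 of 10 mitotic genes were lower there. So were 4 of 11 repair and bypass polymerase, 1 of 5 clamp regulator, 3 of 11 E2F and pocket protein and 1 of 3 chromatin partner genes. In that setting 1 nucleotide supply and 1 E2F and pocket protein gene were higher. Over all genes 11.7% were called lower and 1366 of 13547 higher. Without the 3 least correlated libraries, the counts of lower genes in mutant tumours under anti-PD-1 against PBS were 3 of 10 for nucleotide supply, 1 of 5 for mitochondrial replication, 1 of 11 for repair and bypass polymerases, 1 of 5 for clamp regulators, 2 of 3 for the chromatin partners, 2 of 11 for E2F and pocket proteins and 0 of 10 for mitosis. The share of all genes called lower in that setting was 9.90%.

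In vector tumours 0 of the 10 members passed between anti-PD-1 and PBS in limma, where 0% of genes passed the threshold, and 0 members and 426 of 13982 genes had an unadjusted p under 0.05. The member differences ran from -0.45 for Pola1 (interval -1.01 to 0.10) to 0.16 for Pold4 (interval -0.21 to 0.53). Vector anti-PD-1 replicate 1 was the lowest of its group for Pole (4.05 FPKM), Pole2 (5.76 FPKM), Pola1 (3.87 FPKM) and Pcna (104 FPKM) and the highest for Pole3 (44.7 FPKM) and Pold2 (31.0 FPKM). The difference between the responses of mutant and vector tumours, tested as an interaction, passed for 0 members (limma), beside 1.95% of genes called lower. There 4 members and 3779 of 13982 genes had an unadjusted p under 0.05. This difference came closest to the threshold for Pole3 (-0.53, adjusted p = 0.0509), Pold4 (-0.77, adjusted p = 0.0564) and Pole4 (-0.39, adjusted p = 0.0729). Without vector anti-PD-1 replicate 1 it passed for 3 members, Pole3 (-0.46, adjusted p = 0.0311), Pole4 (-0.38, adjusted p = 0.037) and Pold4 (-0.79, adjusted p = 0.0419). The share of all genes called lower was then 7.14% in place of 1.95%. Of 34 alternatives, the interaction passed in 9 for Pole3, 5 for Pold4, 3 for Pole4 and 1 for Pcna. Without all 3 least correlated libraries, 105 of 13547 genes were called in the interaction, 0.236% of all genes as lower. Averaged over both tumour types, 3 members were lower under anti-PD-1, beside 8.43% of genes called lower: Pola1 (-0.59, adjusted p = 0.0347), Pole2 (-0.47, adjusted p = 0.0308) and Pcna (-0.42, adjusted p = 0.0137). The comparisons share tumours with each other, so their calls are not independent.

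RNA of other cell types moved with the anti-PD-1 result. The mean log2(FPKM + 1) of 9 tested leukocyte genes was 3.99 ± 0.30 in mutant anti-PD-1, 2.17 ± 0.62 in mutant PBS, 2.05 ± 0.47 in vector anti-PD-1 and 1.89 ± 0.10 in vector PBS tumours (SD, n = 5 each). Of these 9 genes, 8 were higher in mutant anti-PD-1 than in mutant PBS tumours, and 8 were higher than in vector anti-PD-1 tumours. Over all 13982 tested genes, 2226 were called higher against mutant PBS and 2489 against vector anti-PD-1 tumours. The 2 groups of mutant tumours did not overlap, with 3.57 as the lowest anti-PD-1 and 3.21 as the highest PBS score. Without the 3 least correlated libraries, 6 of 7 tested leukocyte genes were higher in mutant tumours under anti-PD-1 than under PBS, beside 1442 of 13547 genes. Fibroblast genes were higher for 6 of 6 in mutant tumours under anti-PD-1, with mean scores of 5.43 ± 1.32 in mutant anti-PD-1 and 3.60 ± 0.87 in mutant PBS tumours. Of 5 endothelial genes 4 were higher, with scores of 3.14 ± 0.82 in mutant anti-PD-1 and 2.22 ± 0.21 in mutant PBS tumours. In mutant against vector tumours under anti-PD-1, 5 of 5 endothelial, 3 of 6 fibroblast and 1 of 3 tested adipocyte genes were higher. There 2 of 4 tested epithelial genes were lower, beside 15.1% of all genes. Leaving out the 3 least correlated libraries, 0 of 6 fibroblast and 0 of 5 endothelial genes were called in mutant tumours under anti-PD-1 against PBS. In mutant against vector tumours under anti-PD-1, 0 of 6 fibroblast, 0 of 5 endothelial and 0 of 1 tested adipocyte genes were then called. There 5 of 7 tested leukocyte genes were higher, beside 1366 of 13547 genes, and 1 of 3 tested epithelial genes was lower, beside 11.7%.

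Skeletal muscle scores spread widely, from 2.94 to 7.02 in mutant anti-PD-1, 0.17 to 6.36 in mutant PBS, 0.25 to 5.31 in vector anti-PD-1 and 0.28 to 0.89 in vector PBS tumours, with 1 of 10 genes higher in mutant tumours under anti-PD-1. The adipocyte list had 0 of 3 tested genes called there, and of 4 tested epithelial genes 1 was lower, Krt18 (-1.34, adjusted p = 0.00664). Over all 13982 tested genes, 2226 were called higher and 2045 lower in that comparison. Without the 3 least correlated libraries, 0 of 10 skeletal muscle and 0 of 3 tested epithelial genes were called there. The tumour with the lowest values of Pole, Pole2, Pole3, Pold1, Pold2, Pola1 and Pcna, mutant anti-PD-1 replicate 1, had the highest leukocyte, fibroblast and adipocyte scores of the 20 libraries, at 4.31, 7.16 and 5.54. With the leukocyte score as a covariate, 0 members and 0 of all 13982 genes passed in mutant tumours under anti-PD-1 against PBS, and 0 members and 15 genes passed in mutant against vector tumours under anti-PD-1, where Pole differed by -1.45 (adjusted p = 0.175). With so few genes called, these counts say nothing about the members. Under PBS, where the leukocyte list had no called gene, Pole differed by -0.70 (adjusted p = 0.0415) with that covariate, beside 2.22% of genes called lower. The part of other cell types in the anti-PD-1 results was not tested.

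Within groups, Pole, Pole2, Pola1, Pcna and Pold1 varied together across the 20 tumours, and the other members followed Pole less closely. After group means were subtracted, Pole correlated over the 20 tumours with Pola1 (Pearson r = 0.97), Pole2 (0.94), Pcna (0.90) and Pold1 (0.84), less with Pole4 (0.63), Pold3 (0.56) and Pold2 (0.52), and hardly with Pole3 (0.29) and Pold4 (0.01). Pold2 followed Pold1 (0.86) and Pole3 (0.84) more closely than it followed Pole. Without the 3 least correlated libraries, r with Pole was 0.88 for Pola1, 0.88 for Pold1, 0.81 for Pold3, 0.78 for Pole2 and 0.66 for Pcna, 0.25 for Pold4, 0.19 for Pole3 and 0.02 for Pold2. Only group means were subtracted, so differences between identifier styles remain in these r values. In M-style minus number-only tumours, the log2 difference was -0.70 for Pola1, -0.58 for Pole2, -0.53 for Pole, -0.38 for Pold1 and -0.35 for Pcna. It ran from -0.22 (Pold4) to -0.07 (Pole3) in the other members. These tumours share libraries, depth and makeup across genes, so the values are descriptions without a test.

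**Figure D5:**
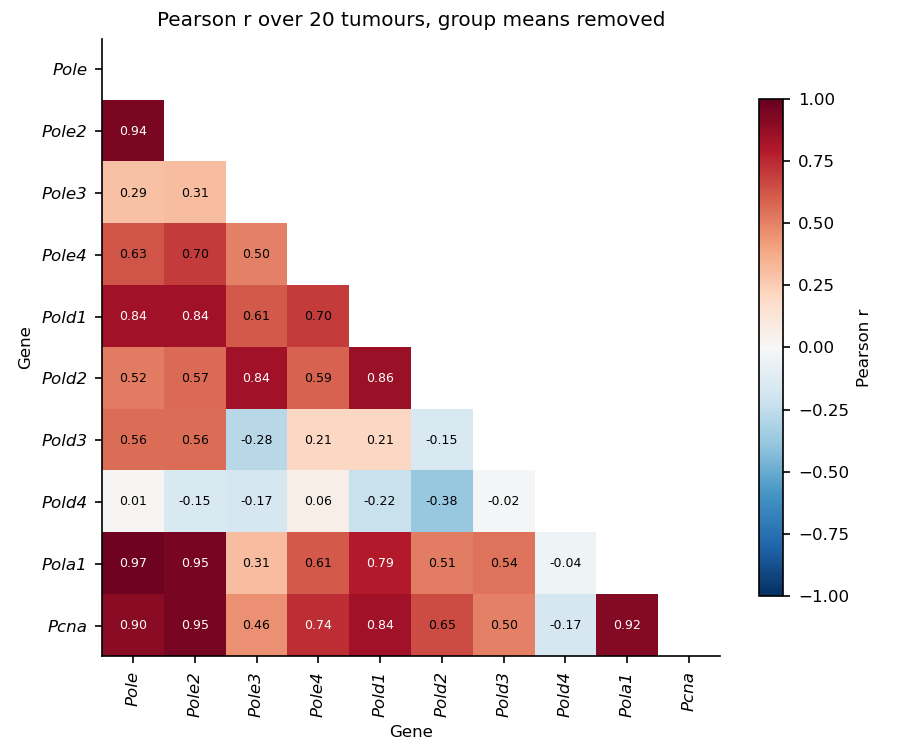
Pearson r between members over the 20 tumours after group means were subtracted, on the log2(FPKM + 1) scale. Pole, Pole2, Pola1, Pcna and Pold1 form a block with r from 0.79 to 0.97, and Pold4 has no r above 0.06.

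Among all 13982 tested genes, the 5 most like Pole within groups were Cbx5, which encodes heterochromatin protein HP1 alpha, Nsd2, a histone H3 lysine methyltransferase, Tubgcp2 of the gamma-tubulin complex, the helicase Blm and Atad2, a bromodomain protein, each with r = 0.98 over the 20 tumours. In the 17 tumours without the 3 least correlated libraries their r was 0.91 to 0.95. Over all 20 tumours without subtracting group means, the 5 most alike were Ppm1l, a phosphatase (r = 0.97), and Lbr, a nuclear lamina receptor, Bub1, a mitotic checkpoint kinase, Wdr60, a dynein-2 subunit, and Sgo2a, a protector of cohesin at centromeres, at 0.94 to 0.95.

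The Pole locus was compared with its neighbours. Of 11 listed genes that start within 100 kb of the Pole start, 4 were tested. Pxmp2, a peroxisomal membrane protein gene that runs the opposite way from just before Pole (chromosome 5, 110274282 to 110286186), averaged 0.898 FPKM in mutant PBS and 1.01 FPKM in vector PBS tumours, a log2 difference of -0.10 (adjusted p = 0.949). Pgam5, a mitochondrial phosphatase gene, differed by 0.08 (adjusted p = 0.951), Ankle2, which acts in nuclear envelope reassembly, by 0.21 (adjusted p = 0.682) and Gm43138 by -0.00 (adjusted p = 0.997). Of 26 tested genes starting within 1000 kb, 0 were called under PBS, beside 1.45% of all tested genes, and Pole itself was not called there. With so few genes called, that count says little about the neighbours. Under anti-PD-1 Pgam5 was lower, at 22.7 ± 5.13 FPKM in mutant and 33.2 ± 7.75 FPKM in vector tumours (-0.55, adjusted p = 0.0239), and the other 3 tested neighbours were not called. The share of all genes called lower in that comparison was 15.1%. Whether the difference of Pole under PBS exceeded those of its neighbours was not tested.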

How the data were processed

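RNA of 20 tumours was analysed from 1 deposited file per library, each listing 55335 genes by Ensembl identifier with 1 value. The authors' values were taken as FPKM: the headers name no unit, and per the submitters' processing notes Cuffnorm was among the tools, with STAR 2.5 and the mm10 build. The annotation, strandedness, handling of reads with several matches and any scaling of libraries were not given in the sources used here. In 1 file, 10 extra columns were empty. Symbols and coordinates came from GENCODE vM21 (55154 identifiers matched). Promoter sequences came from RefSeq on GRCm38.p6, and 9 of 10 members matched.

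Depth is unknown. A search for the value of 1 read among single-transcript genes made 32.8% to 46.8% of values whole within 5%, so reads were not recovered. All libraries were counted as separate, since no 2 had the same values and Spearman correlations reached at most 0.983.

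Values were tested as log2(FPKM + 1), which understates the change of low genes, over the 13982 genes reaching 1 FPKM in 5 or more libraries. All 10 members passed this filter. The fit was limma 3.58.1 (R 4.3.3, with trend) on the 20 libraries, with 4 group means and the identifier style of the titles as a covariate (M and a number in 11, a number alone in 9), whose meaning the labels do not give. Calls needed a Benjamini-Hochberg adjusted p under 0.05. The relative level of Pole was tested with two-sided exact permutation tests, adjusted over 8. Scripts were tested on simulated data. Python 3.11.15 was used.

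The members and gene lists were chosen with earlier results of these data known, so no list is independent evidence of its direction. The genes named are all members, in each list the 4 genes with the smallest p per comparison or some of these, the 5 genes most correlated with Pole, and the tested genes starting within 100 kb of Pole. Chtf8 has 2 overlapping identifiers and was left out of the fork genes. Alternatives were the pseudocount, the filter, 3 scalings, the trend, weights, the identifier style, tissue and fork gene covariates, and leaving out libraries.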

Additional observations from a re-analysis of the deposited data

Results flagged for a closer look

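Pole3 in vector anti-PD-1 replicate 1 stood far from its group, at 44.7 FPKM where the other 4 tumours lay between 33.2 and 35.8 FPKM. Its gap to the nearest tumour was 0.78 of the range of the group, above Dixon's value of 0.71 for 5 samples. It was the 1 such value among 40 groups of member values, and chance gives about 1 in 20. The same library was the lowest of its group for Pole, Pole2, Pola1 and Pcna.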

How the results depend on the processing

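Over 34 alternatives per comparison, 107 of 2380 member differences had another sign than in the full fit, and 3 of these were calls: with the fork gene mean as a covariate, Pole (0.02), Pole2 (0.02) and Pola1 (0.10) in mutant tumours under anti-PD-1 against PBS. The cause was not tested.

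Under PBS, mutant against vector, the number of members called was 0, against 1 with upper-quartile scaling, quantile normalization, without the 3 least correlated libraries, and with the leukocyte or the fork gene covariate, and 3 with sample weights. Pole alone was then -0.64, -0.63, -0.62, -0.70, -0.59 and, with weights, -0.60. Leaving out 1 library gave 0 or 1 call, and Pole between -0.68 and -0.53. Under anti-PD-1, mutant against vector, the count of 4 became 2 with TPM scaling (each library to an equal sum), without the 3 least correlated libraries and in number-only libraries, 7 with quantile normalization, 3 without the style term, 3 with the fork gene covariate (Pold4 among them, at -0.66) and 0 with the leukocyte covariate (Pole -1.45), and 2 to 6 leaving out 1 library. In mutant tumours, anti-PD-1 against PBS, the count of 9 became 5 with no filter and in M-style libraries, 3 without the style term, without the 3 least correlated libraries, in number-only libraries and with the muscle covariate, 2 with TPM scaling, 1 with the fork gene covariate and 0 with the leukocyte covariate. Leaving out 1 library gave 3 to 9. For the interaction the count of 0 became 2 with quantile normalization, 1 without the trend and with the fork gene covariate, and 4 with weights, and 0 to 3 leaving out 1 library. For the mean genotype difference the count of 2 became 1 with TPM scaling, in number-only libraries and with either tissue covariate, and 4 in M-style libraries. For the mean treatment difference the count of 3 became 1 with no filter, TPM scaling, M-style libraries or the fork gene covariate, 0 without the style term and with either tissue covariate, 5 with quantile normalization, 6 with weights, and 1 to 5 leaving out 1 library. The causes were not tested.

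Pole relative to the fork genes under anti-PD-1 was -0.53 (adjusted p = 0.114) without the 3 least correlated libraries, where fewer tumours allow fewer arrangements in the exact test. Relative to Pold1, the mutant anti-PD-1 against PBS difference was 0.21 in M-style and -0.11 in number-only libraries, and mutant against vector under anti-PD-1 ranged from -0.49 to -0.25 leaving out 1 library and from -0.68 (number-only libraries) to -0.04 (M-style libraries) over all alternatives. In both style subsets the exact tests could not reach the threshold. TPM scaling moved the median of all genes to 0.19 under anti-PD-1 and in the interaction and to 0.11 for the mean genotype difference, and quantile normalization moved it to -0.12 and -0.11 in the first 2, against 0.00, 0.01 and 0.01 as deposited. Higher and lower calls over all genes under anti-PD-1, mutant against vector, were 2489 and 2112 as deposited, 3380 and 1208 with TPM scaling, and 2327 and 3625 with quantile normalization. In mutant tumours, anti-PD-1 against PBS, they were 2226 and 2045, 2659 and 1192, and 2277 and 3275. No paired analysis was possible because the labels give no replicate numbers: those used here only name tumours, in deposit order within each group.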
